A study of Mus musculus with 15 samples.

Results

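The genes of major histocompatibility complex (MHC) class II antigen presentation were followed across 15 whole subcutaneous PDA30364 tumors. The genes were chosen by name, as 10 genes that encode the class II chains, the proteins that load them with peptide, the invariant chain, its protease and the class II transactivator. Each gene was represented by the probe set with its symbol alone and the highest mean over the 15 arrays. This gave values for 9 of the 10 genes, out of 18193 genes with such a probe set. H2-DMb1, 1 of the 2 beta chain genes of H2-M, had no probe set with its symbol alone and was not analysed here. A pair of probe sets listed both H2-DMb1 and H2-DMb2 and were assigned to neither, and probe sets named for H2-DMb2 may share sequence with this close copy.

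PDA30364 is a mouse pancreatic ductal adenocarcinoma (PDA) line on a C57BL/6 background, established from 1 tumor of a genetically engineered mouse. Tumors were grown in C57BL/6-Ly5.1 mice, aged 6 to 12 weeks, that carried an intact immune system, and were collected on day 26. The 4 combination tumors (MEKi+CD40) were given GDC-0623, an inhibitor of the kinase MEK (MEKi), at 30 mg/kg and an agonist antibody (Ab) to CD40, the 3 MEKi tumors GDC-0623 and control IgG, the 4 CD40 Ab tumors vehicle and the agonist, and the 4 control tumors (Ctrl) vehicle and control IgG. Antibodies were given on treatment days 3, 5 and 7 and 1 day before analysis. Every group thus shared the tumor line, the host strain and a mouse IgG, and each array held RNA from pieces of 1 tumor.

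MHC class II molecules display peptides from endosomes to CD4+ T cells and are made mainly by dendritic cells, B cells and macrophages, while many other cells can be induced to make them by interferon gamma. The alpha and beta chains assemble with the invariant chain Cd74, which cathepsin S (Ctss) trims to a short remnant, and H2-M then exchanges this remnant for peptide under the control of its inhibitor H2-O. The transactivator Ciita is recruited to the X and Y boxes of class II promoters and sets the transcription of most of these genes.

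The promoters of the class II genes are shown first because Ciita acts through such elements. RefSeq promoters (build GRCm38.p6, 250 bases before to 50 after the start) were found for 7 of the 10 genes, including 2 starts of H2-DMa. The Y box letters TGATTGG, searched on both strands, were present in 5 of these genes and in 7.82% of all 32851 promoters searched. Stretches of 80 bases around each match are given below, 5′ to 3′ on the strand of the gene, with the Y box in capitals. Where present, the longest run that the H2-Eb1, H2-DMb1 and H2-DMb2 promoters had in common in the 50 bases before the Y box, GATGATGCT, is also in capitals. It was found in 0.274% of all promoters searched, on either strand.
H2-Aa (chr17:34287844-34287923, minus strand): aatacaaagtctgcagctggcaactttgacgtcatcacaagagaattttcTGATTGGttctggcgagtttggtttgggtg
H2-Eb1 (chr17:34305756-34305835, plus strand): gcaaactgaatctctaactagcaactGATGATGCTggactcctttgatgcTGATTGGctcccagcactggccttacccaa
H2-DMb1 (chr17:34153078-34153157, plus strand): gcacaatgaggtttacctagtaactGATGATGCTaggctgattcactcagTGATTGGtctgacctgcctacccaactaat
H2-DMb2 (chr17:34145107-34145186, plus strand): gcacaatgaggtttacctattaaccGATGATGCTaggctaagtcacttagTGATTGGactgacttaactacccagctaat
H2-Oa (chr17:34092284-34092363, plus strand): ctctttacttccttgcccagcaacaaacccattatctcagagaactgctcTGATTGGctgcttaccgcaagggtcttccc

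All 5 Y boxes lay on the strand of their gene, with their first base at -50 in H2-Aa, -61 in H2-Eb1, -63 in H2-DMb1, -92 in H2-DMb2 and -45 in H2-Oa, counted from the start. The shared run began at -85, -88 and -117 in H2-Eb1, H2-DMb1 and H2-DMb2. Neither H2-DMa promoter held the Y box letters. The Ctss promoter held none either, but matched an interferon response element, searched as GAAA repeated after 2 bases of any kind, which 3.44% of all promoters held on either strand. Its match, in capitals, began at -21.
Ctss (chr3:95526730-95526809, plus strand): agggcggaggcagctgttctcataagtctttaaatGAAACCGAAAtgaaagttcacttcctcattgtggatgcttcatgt
These matches describe the letters of the promoters and say nothing of what was bound in the tumors.

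The arrays were first checked against the labelled tissue. The epithelial keratins Krt8, Krt18 and Krt19 were high on every array, Krt19 at log2 signals of 13.05 to 13.59, and the mean of 6 epithelial genes was 11.34 or more in each tumor. Whole tumor pieces also hold immune cells, stroma and neighboring tissue, so that more cells of a type and more RNA per cell cannot be told apart in these values. One MEKi tumor, replicate 1, stood apart by B cell genes: the mean of 9 B cell genes was 6.20 there and 4.33 to 5.01 in the other 14 tumors. It also had the highest mean of 10 skeletal muscle genes, at 10.86, and the highest mean of 5 leukocyte genes, at 10.35. The tumor numbers of the labels formed a series under 10000, with all 4 combination, 2 CD40 Ab and 3 control tumors, and a series from 10000 on, with all 3 MEKi, 2 CD40 Ab and 1 control tumor. What these series stand for is not stated in the labels.

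Class II genes were highest in combination tumors and lowest in control tumors for 8 of the 9 measured genes, with either single agent in between. The 9th, H2-Oa, was also highest in the combination but lowest in CD40 Ab tumors. The mean signal over the 9 genes was 10.50 ± 0.31 (SD, n = 4) in combination, 9.82 ± 0.59 (n = 3) in MEKi, 9.80 ± 0.30 (n = 4) in CD40 Ab and 8.90 ± 0.27 (n = 4) in control tumors, on the log2 scale of the robust multi-array average (RMA). Between 70.7% and 85.7% of the variance of the 8 genes lay between the groups, and 35.0% of that of H2-Oa.

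**Figure D1:**
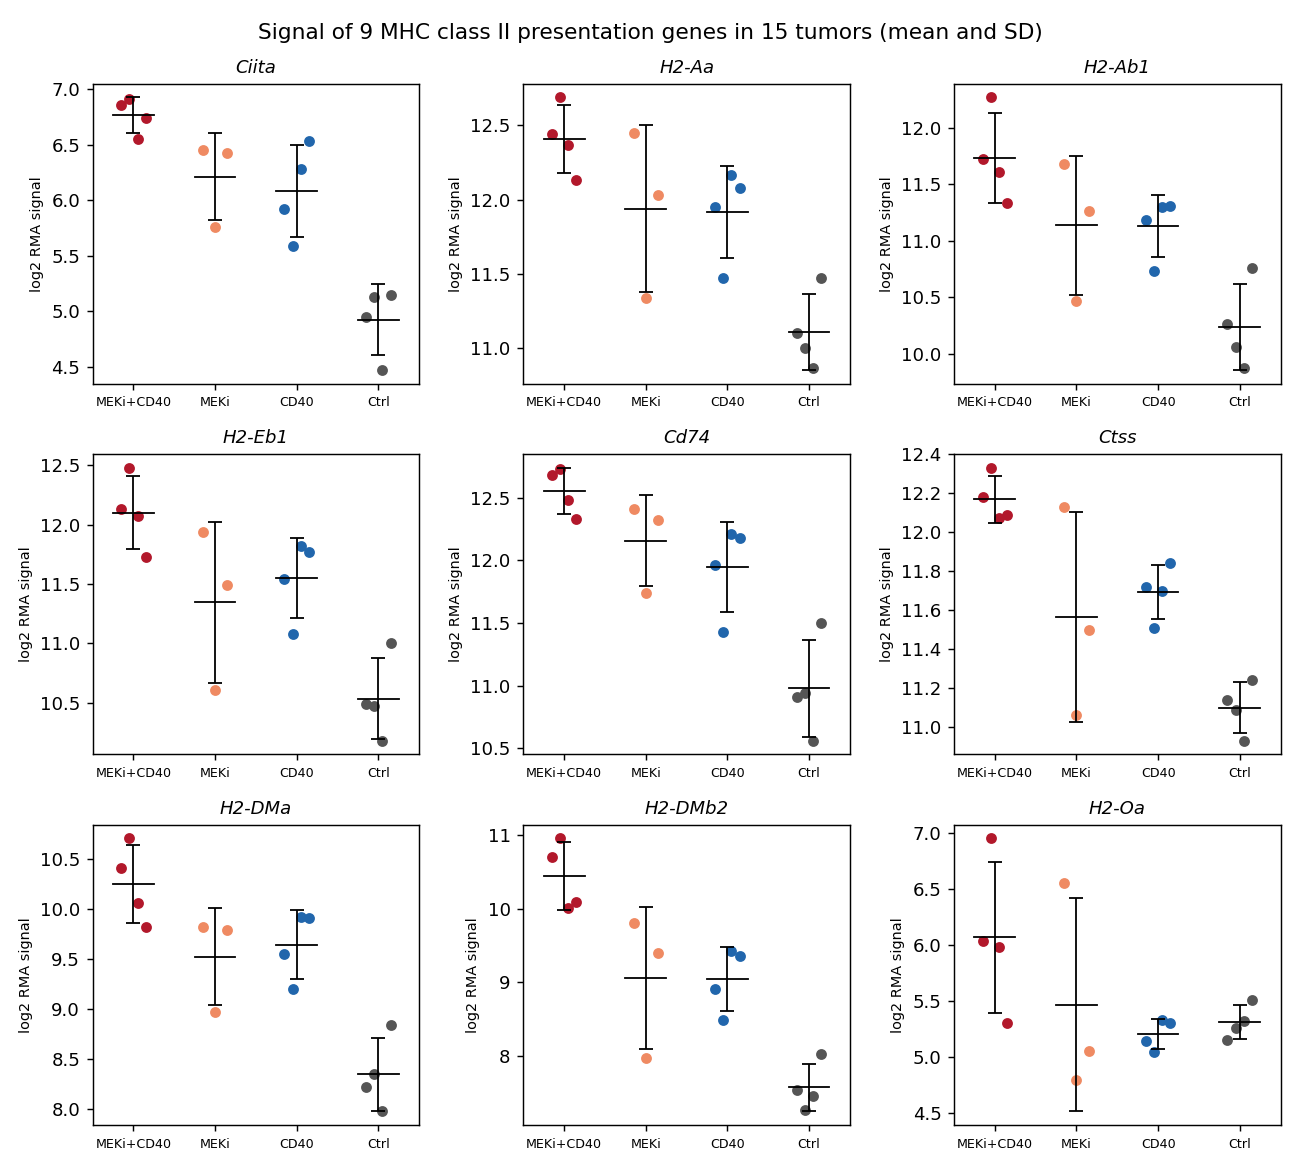
Log2 RMA signal (y axis) of the 9 measured class II genes in each tumor by group (x axis), with points for tumors and bars for mean and SD. All combination tumors lie above all control tumors in every panel except H2-Oa, where the combination tumors reach down to 5.30 and the control tumors up to 5.51.

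Against control, the combination raised 8 of the 9 genes past an adjusted p of 0.05, and in all 8 every combination tumor lay above every control tumor. Of all 18193 genes, 10.3% were higher and 8.72% lower past the threshold, and 12.3% had all combination tumors above all control tumors. The median log2 fold change (FC) was 1.57 over the 9 genes and -0.04 over all genes. Folds of the 8 genes were between 2.10 for Ctss and 7.24 for H2-DMb2. H2-Oa was the exception (adjusted p = 0.108).

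Ciita, the master regulator of class II transcription, was at 6.86, 6.91, 6.55 and 6.74 in combination tumors and at 4.95, 5.13, 4.47 and 5.15 in control tumors. The lowest combination tumor was thus above the highest control tumor, and the log2 FC was 1.84 ± 0.15 (SE, adjusted p = 0.000162), or 3.58-fold. It measured 6.45, 5.76 and 6.42 in MEKi tumors and 5.92, 5.59, 6.28 and 6.53 in CD40 Ab tumors, all above the controls. Both single agents raised it, with a log2 FC of 1.28 ± 0.22 for MEKi (adjusted p = 0.00640) and 1.16 ± 0.21 for CD40 Ab (adjusted p = 0.0456). The next brightest Ciita probe set passed with MEKi (log2 FC 1.07 ± 0.18, adjusted p = 0.00577). It did not pass with CD40 Ab (0.80 ± 0.16, adjusted p = 0.0651). Signals of different probe sets have no common scale, so levels were compared between tumors for each gene and not between genes.

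H2-Aa encodes the alpha chain of I-A, the class II molecule of C57BL/6 mice. It was at 12.44, 12.69, 12.37 and 12.13 in combination and 11.10, 11.00, 10.87 and 11.47 in control tumors. These ranges did not overlap, and the log2 FC was 1.30 ± 0.15 (adjusted p = 0.000638). In MEKi tumors it was at 12.45, 11.34 and 12.03, so that replicate 2 fell below the highest control. In CD40 Ab tumors it was at 11.95, 11.47, 12.17 and 12.08, where replicate 2 equalled the highest control. Neither single agent passed the threshold, with log2 FC of 0.83 ± 0.25 for MEKi (adjusted p = 0.0589) and 0.81 ± 0.17 for CD40 Ab (adjusted p = 0.0746).

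H2-Ab1, the beta chain of I-A, was at 11.72, 12.27, 11.61 and 11.33 in combination and 10.26, 10.06, 9.87 and 10.76 in control tumors. The groups were again apart (log2 FC 1.50 ± 0.22, adjusted p = 0.00251). In MEKi tumors it was at 11.68, 10.47 and 11.26, and in CD40 Ab tumors at 11.18, 10.73, 11.30 and 11.31. The lowest tumor of each single agent, replicate 2, lay below the highest control, and the log2 FC of 0.90 ± 0.30 for MEKi (adjusted p = 0.0795) and 0.89 ± 0.19 for CD40 Ab (adjusted p = 0.0850) did not pass.

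H2-Eb1 encodes the beta chain of I-E, whose alpha chain gene H2-Ea is not functional in C57BL/6 mice. It was at 12.13, 12.48, 12.07 and 11.73 in combination and 10.49, 10.47, 10.18 and 11.00 in control tumors. Every combination tumor was higher (log2 FC 1.57 ± 0.19, adjusted p = 0.000867). In CD40 Ab tumors it was at 11.54, 11.08, 11.82 and 11.77, all above control, at an adjusted p of 0.0550 that missed the threshold (log2 FC 1.02 ± 0.20). In MEKi tumors it was at 11.94, 10.61 and 11.49, with replicate 2 among the controls (log2 FC 0.81 ± 0.31, adjusted p = 0.115). H2-Ea itself ranged from 6.48 to 7.05 over the 15 tumors and was 0.13 ± 0.11 apart between combination and control (log2 FC, adjusted p = 0.507).

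The invariant chain Cd74, the chaperone of new class II dimers, was at 12.68, 12.73, 12.48 and 12.33 in combination and 10.91, 10.94, 10.56 and 11.50 in control tumors. Its log2 FC was 1.58 ± 0.18 (adjusted p = 0.000648), with no overlap. In MEKi tumors it was at 12.41, 11.74 and 12.32, all above control (log2 FC 1.18 ± 0.23, adjusted p = 0.0126). In CD40 Ab tumors it was at 11.96, 11.43, 12.21 and 12.18, where replicate 2 overlapped the controls and the log2 FC of 0.97 ± 0.21 did not pass (adjusted p = 0.0934).

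Ctss, the protease of the last step of invariant chain removal, was at 12.18, 12.33, 12.07 and 12.09 in combination and 11.14, 11.09, 10.93 and 11.24 in control tumors. The rise was smaller than that of the other 7 genes but tight over tumors (log2 FC 1.07 ± 0.09, adjusted p = 0.000153). CD40 Ab tumors, at 11.72, 11.51, 11.70 and 11.84, also lay above control (log2 FC 0.59 ± 0.09, adjusted p = 0.0274). MEKi tumors, at 12.13, 11.06 and 11.50, were spread from control to combination levels, and their log2 FC of 0.46 ± 0.22 did not pass (adjusted p = 0.199).

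H2-DMa and H2-DMb2 encode alpha and beta chains of H2-M, the editor that frees the class II groove for peptide. H2-DMb2 had the largest change of the 9 genes, at 10.69, 10.95, 10.01 and 10.09 in combination and 7.55, 7.27, 7.47 and 8.03 in control tumors. The gap between the lowest combination and the highest control tumor was wide, and the log2 FC was 2.86 ± 0.23 (adjusted p = 0.000153). In MEKi tumors H2-DMb2 was at 9.81, 7.98 and 9.40, with replicate 2 just under the highest control (log2 FC 1.48 ± 0.40, adjusted p = 0.0392). In CD40 Ab tumors it was at 8.91, 8.49, 9.43 and 9.36, all above control (log2 FC 1.47 ± 0.22, adjusted p = 0.0262).

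H2-DMa was at 10.41, 10.71, 10.06 and 9.82 in combination and 8.22, 8.35, 7.98 and 8.84 in control tumors. The combination raised it by a log2 FC of 1.90 ± 0.22 (adjusted p = 0.000680), with no overlap. It was at 9.82, 8.97 and 9.79 in MEKi tumors and at 9.55, 9.20, 9.92 and 9.91 in CD40 Ab tumors, and all of these were above all controls. Both passed the threshold, with a log2 FC of 1.18 ± 0.25 for MEKi (adjusted p = 0.0177) and 1.30 ± 0.20 for CD40 Ab (adjusted p = 0.0287).

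H2-Oa, the alpha chain of the H2-M inhibitor H2-O, which is known mainly from B cells and some dendritic cells, did not follow the other genes. It was at 6.03, 6.95, 5.98 and 5.30 in combination tumors, 6.55, 4.79 and 5.05 in MEKi tumors, 5.14, 5.04, 5.33 and 5.30 in CD40 Ab tumors and 5.15, 5.26, 5.32 and 5.51 in control tumors. Its highest values were in combination replicate 2 and MEKi replicate 1, and each treated group overlapped the controls. The log2 FC was 0.76 ± 0.28 in the combination (adjusted p = 0.108), 0.15 ± 0.37 in MEKi (adjusted p = 0.819) and -0.11 ± 0.09 in CD40 Ab tumors (adjusted p = 0.780).

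**Figure D2:**
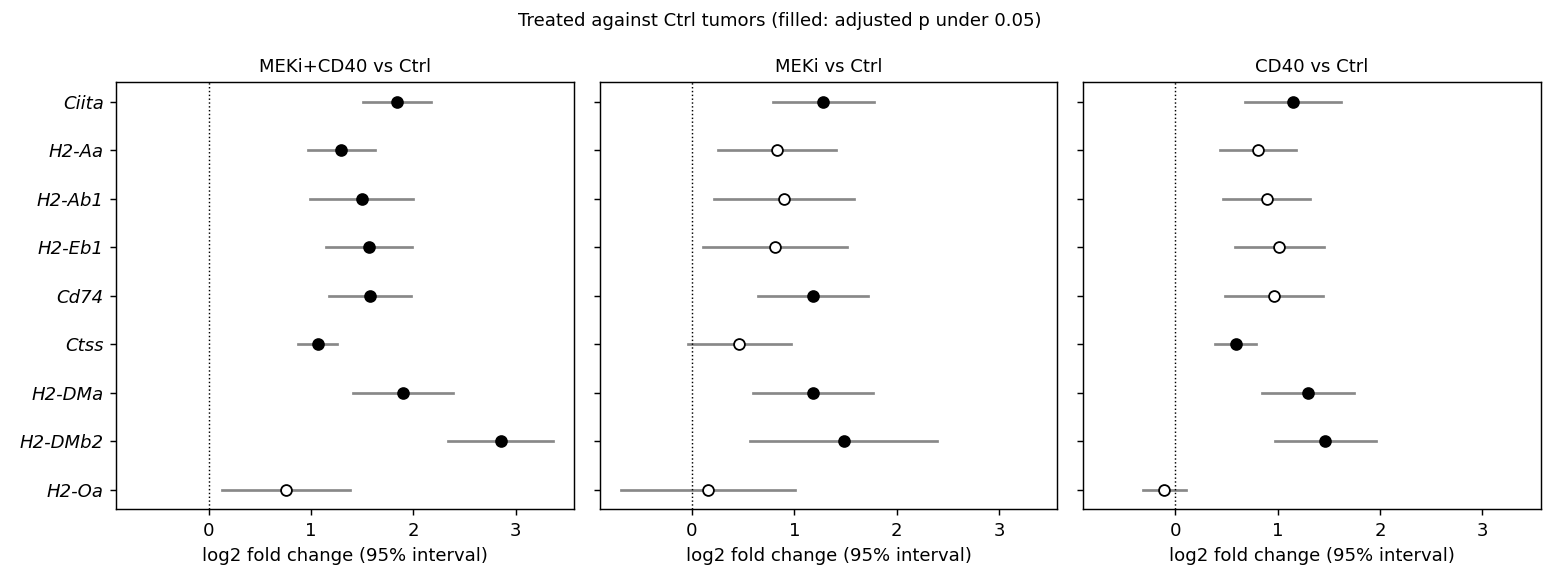
Log2 fold change over control (x axis) of each class II gene (y axis) with its 95% interval in combination, MEKi and CD40 Ab tumors, filled where the adjusted p was under 0.05. In combination tumors 8 of 9 points are filled, with H2-DMb2 farthest to the right, while 4 of 9 are filled for each single agent.

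Set against control, MEKi alone thus raised 4 of the 9 genes (Ciita, Cd74, H2-DMa and H2-DMb2), where 10.7% of all genes were higher past the threshold, and in 3 of the 4 no tumor overlapped, against 16.4% of all genes with all MEKi tumors above all controls. CD40 Ab alone raised 4 of the 9 (Ciita, Ctss, H2-DMa and H2-DMb2), where 1.01% of all genes were higher and 0.0495% lower. In 5 of the 9, including H2-Eb1, every CD40 Ab tumor was above every control, compared with 4.69% of all genes. Median log2 FC over the 9 genes were 0.90 for MEKi and 0.97 for CD40 Ab, beside -0.04 and -0.00 over all genes. The 3 comparisons share the same 4 control arrays and are therefore not independent. In all 9 genes MEKi and CD40 Ab tumors overlapped, and the means of MEKi minus CD40 Ab tumors were between -0.21 and 0.26 on the log2 scale, a difference that was not tested.

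These counts rested on single tumors for the single agents. For MEKi, the count was 8 of 9 without MEKi replicate 2, the lowest MEKi tumor for each of the 9 genes. It was 1 without MEKi replicate 3 and 2 without control replicate 1. Of all genes, 10.8%, 8.1% and 7.32% were higher in these fits, in that order. For CD40 Ab, it was 7 without CD40 Ab replicate 2 or control replicate 4, and 0 without any 1 of the other 6 tumors, of which 4 left 0 of all genes past the threshold when omitted (CD40 Ab replicate 4 and control replicates 1, 2 and 3). In the CD40 Ab fits with 7, 1% and 1.03% of all genes were higher. Without CD40 Ab replicate 1 and without CD40 Ab replicate 3, where 0 of the 9 passed, 0.39% and 0.434% of all genes were higher. For the combination the count was 8 or 9 whichever tumor was left out, where 7.49% to 9.66% of all genes were higher.

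Within the tumor numbers under 10000, the combination raised 8 of 9 genes over control (4 against 3 tumors, median log2 FC 1.72). There 8.82% of all genes were higher and 6.77% lower past the threshold. MEKi against control, from 10000 on, was 3 tumors against 1, control replicate 4, which was the highest control for all 9 genes. The median log2 FC was 0.47, and no call could be read from this fit, since 0 of all 18193 genes passed in it. CD40 Ab against control had medians of 0.89 under 10000 (2 against 3 tumors) and 0.69 from 10000 on (2 against 1). None of the 9 passed in either, where 7 and 0 of all genes were higher past the threshold. With the series as a covariate over all 8 tumors 8 of the 9 passed, and 0.956% of all genes were higher.

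The combination was next compared with each single agent. Against CD40 Ab, all 9 genes had estimates above 0, with a median log2 FC of 0.60 beside -0.03 over all genes, and 2 passed the threshold, where 3.69% of all genes were higher and 2.52% lower. These were H2-DMb2 (log2 FC 1.39 ± 0.26, adjusted p = 0.0205) and Ctss (0.47 ± 0.09, adjusted p = 0.0207), the peptide editor and the invariant chain protease. In 5 of the 9 genes all combination tumors were above all CD40 Ab tumors, against 7.26% of all genes. Ciita was among them, with a log2 FC of 0.69 ± 0.18 that did not pass (adjusted p = 0.0691). The next brightest Ciita probe set did pass (0.75 ± 0.16, adjusted p = 0.0329), and the dimmest did not (0.255 ± 0.16, adjusted p = 0.398). Without combination replicate 1 or without combination replicate 2, none of the 9 passed, where 2.01% of all genes were higher in either fit. Within the tumor numbers under 10000 (4 against 2 tumors) the median was 0.86, and 2 passed, where 1.81% of all genes were higher.

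Against MEKi, the estimates of all 9 genes were likewise above 0, from 0.40 for Cd74 to 1.37 for H2-DMb2, with a median of 0.60 beside 0.01 over all genes. None passed the threshold in limma (adjusted p from 0.150 to 0.589), 5 had an unadjusted p under 0.05, and 1.38% of all genes were higher and 2.65% lower past it. In 2 genes all combination tumors were above all MEKi tumors, against 8.77% of all genes. The 95% interval of H2-DMb2 ran from 0.38 to 2.36. The 2 groups lay wholly in different series of tumor numbers, so that treatment and series cannot be told apart here. Without MEKi replicate 1, the tumor with high B cell genes, 1 of the 9 passed, where 2.28% of all genes were higher and 4.2% lower.

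**Figure D3:**
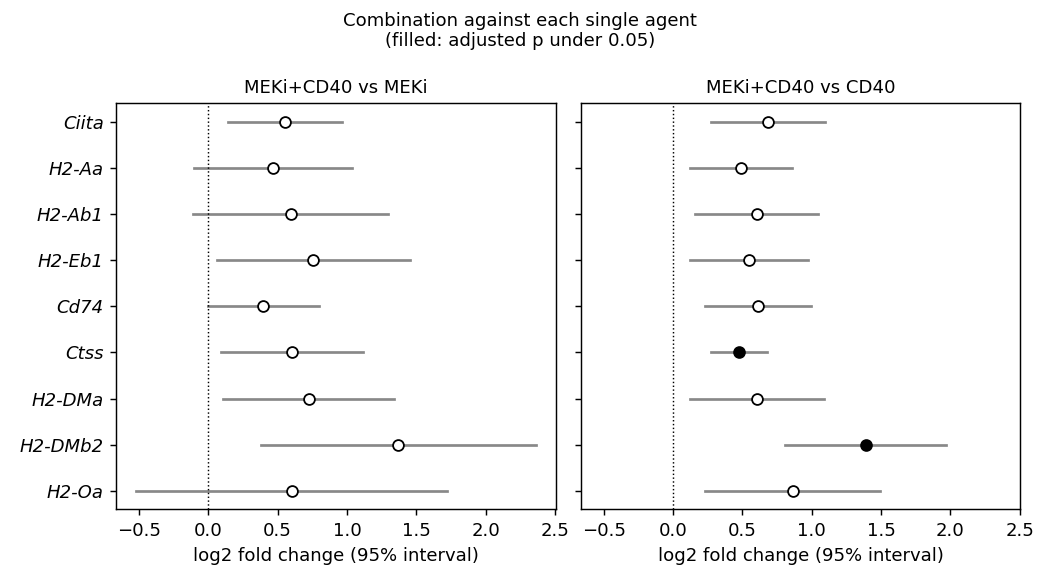
Log2 fold change (x axis) of each class II gene (y axis) in combination tumors over MEKi tumors and over CD40 Ab tumors, with 95% intervals, filled where the adjusted p was under 0.05. All points lie above 0, and the only filled ones are H2-DMb2 and Ctss over CD40 Ab.

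For the interaction, the log2 difference of CD40 Ab from control tumors was subtracted from that of combination from MEKi tumors. This tests whether the 2 agents together differ from the sum of their separate changes on the log2 scale. None of the 9 genes passed in limma, none had an unadjusted p under 0.05, and 2% of all genes were higher and 2.56% lower past the threshold. Estimates were below 0 in 7 of 9 genes, from -0.60 ± 0.31 for Ciita (adjusted p = 0.336) to 0.71 ± 0.50 for H2-Oa (adjusted p = 0.518). The 95% interval of the interaction ran from -1.25 to 0.05 for Ciita and from -0.51 to 0.53 for Ctss, and was widest for H2-DMb2, from -1.18 to 0.99, and H2-Oa, from -0.36 to 1.78. With the series of tumor numbers as a covariate all 9 estimates were above 0, with 0 past the threshold.

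Several probe sets were at hand for 5 of the genes, 19 in all for the 9 genes. In combination against control all 19 had estimates above 0 and 17 passed. The 4 probe sets of H2-Aa had log2 FC of 1.30 to 1.82, the 3 of H2-Ab1 1.50 to 1.68 and the 3 of H2-DMb2 2.67 to 2.86. All probe sets of H2-Aa, H2-Ab1 and Cd74 were of types that can match several transcripts. The 2 of H2-DMa were unequal, at 0.87 and 1.90. Ciita had a bright pair, at 1.55 and 1.84, and a dim probe set with a mean signal of 3.22 that did not pass (0.37, adjusted p = 0.0974). In CD40 Ab against control, 1 of 3 Ciita, 2 of 3 H2-DMb2 and 2 of 2 H2-DMa probe sets passed.

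The other genes of the pathway were described by lists of chains and regulators, of endosomal processing and of the interferon gamma axis. Beside the counts of these and the later lists, 10.3% of all genes were higher in combination against control. The share was 10.7% with MEKi and 1.01% with CD40 Ab, so counts of different comparisons are not on a common scale. Of 12 further chains and regulators, 3 rose in combination against control and 0 fell, with a median log2 FC of -0.04. They were Marchf1, a ubiquitin ligase that removes class II from the surface (0.82 ± 0.20, adjusted p = 0.0268), H2-Eb2, a second beta chain gene of the E region (0.68 ± 0.13, adjusted p = 0.00751), and Rfx5, a subunit of the factor that binds the X box (0.40 ± 0.10, adjusted p = 0.0311). The other subunits of the X and Y box factors, Rfxank, Rfxap, Nfya, Nfyb and Nfyc, did not pass. Marchf1 also rose with CD40 Ab alone (0.79 ± 0.10, adjusted p = 0.0207), where it was 1 of 12, and 0 of 12 passed with MEKi alone.

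Of 8 genes of endosomal processing, 5 rose in combination tumors, with a median log2 FC of 0.28. Ctsh, a lysosomal aminopeptidase, rose most (1.28 ± 0.10, adjusted p = 0.000149). It was at 11.63, 11.57, 11.47 and 11.56 in combination, 11.74, 11.85 and 11.68 in MEKi, 10.07, 10.37, 10.70 and 10.40 in CD40 Ab and 10.22, 10.04, 10.30 and 10.55 in control tumors. The tumors with and without MEKi did not overlap, and CD40 Ab and control tumors did, an order unlike that of the class II genes. Ifi30, which reduces disulfide bonds of antigens in lysosomes, rose with the combination (0.89 ± 0.13, adjusted p = 0.00216), with MEKi (0.37 ± 0.09, adjusted p = 0.0263) and with CD40 Ab (0.59 ± 0.07, adjusted p = 0.0199). The aspartic protease Ctsd rose by a log2 FC of 0.48 ± 0.06 with the combination (adjusted p = 0.00121).

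Interferon gamma is the classical inducer of Ciita, and 5 of 8 genes of its axis rose in combination tumors (median log2 FC 0.85). Ifng itself was at 5.67, 6.64, 4.99 and 5.53 in combination and 3.98, 4.00, 3.59 and 4.27 in control tumors (log2 FC 1.75 ± 0.30, adjusted p = 0.00467). The transcription factor Irf1 rose by 1.26 ± 0.14 (adjusted p = 0.000695) and the feedback inhibitor Socs1 by 1.13 ± 0.23 (adjusted p = 0.0106). With MEKi 3 of 8 rose, with Ifng at 1.10 ± 0.28 (adjusted p = 0.0317), Irf1 at 1.02 ± 0.15 (adjusted p = 0.00382) and Socs1 at 1.11 ± 0.21 (adjusted p = 0.00953). With CD40 Ab 3 of 8 rose, with Ifng at 1.16 ± 0.19 (adjusted p = 0.0313), Irf1 at 0.83 ± 0.12 (adjusted p = 0.0257) and Irf8, a factor of myeloid cells, at 0.88 ± 0.16 (adjusted p = 0.0442). Of 4 costimulation genes only 1, Cd40, the receptor of the agonist, passed the threshold in each of the 3 comparisons. It rose by 0.81 ± 0.22 in combination (adjusted p = 0.0352), 0.76 ± 0.12 in MEKi (adjusted p = 0.00417) and 0.57 ± 0.08 in CD40 Ab tumors (adjusted p = 0.0225).

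Leukocyte genes moved with the class II genes. Ptprc, the common leukocyte antigen CD45, was at 9.76, 10.52, 9.98 and 9.66 in combination, 10.60, 8.68 and 9.47 in MEKi, 9.66, 9.06, 9.36 and 9.53 in CD40 Ab and 8.33, 8.45, 8.22 and 8.72 in control tumors. The combination and CD40 Ab tumors were all above control (log2 FC 1.55 ± 0.18, adjusted p = 0.000780, and 0.97 ± 0.14, adjusted p = 0.0240), and MEKi replicate 2 was not (1.15 ± 0.38, adjusted p = 0.0796). Of the 5 leukocyte genes, 4 rose with the combination, 0 with MEKi and 3 with CD40 Ab. Of all genes, 10.3%, 10.7% and 1.01% were higher in these comparisons. Their mean ranged from 9.50 to 10.28 in combination, 8.63 to 10.35 in MEKi, 9.20 to 9.68 in CD40 Ab and 8.62 to 8.98 in control tumors.

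The mean class II signal minus the mean leukocyte signal was 0.68 ± 0.19 (SD, n = 4) in combination, 0.36 ± 0.31 (n = 3) in MEKi, 0.35 ± 0.25 (n = 4) in CD40 Ab and 0.12 ± 0.13 (n = 4) in control tumors. Every combination tumor, at 0.50 to 0.94, was above every control tumor, at 0.01 to 0.30, a description that was not tested. In a fit of all 15 arrays with the leukocyte mean as a covariate, chosen after the data were seen, 5 of the 9 genes passed in combination against control, where 3.41% of all genes were higher past the threshold. These were H2-DMb2 (log2 FC 1.80, adjusted p = 0.00642), Ciita (1.41, adjusted p = 0.00839), H2-DMa (1.25, adjusted p = 0.0184), Cd74 (1.07, adjusted p = 0.0261) and Ctss (0.49, adjusted p = 0.0218). H2-Aa, H2-Ab1 and H2-Eb1 were at 0.58, 0.63 and 0.70 and did not pass. With MEKi Ciita, Cd74 and H2-DMa passed, where 11.7% of all genes were higher. With CD40 Ab 0 of 9 did, at a median log2 FC of 0.46, and 0 of all genes passed in that fit. With leukocyte and B cell means as covariates together, 0 of 9 passed in the combination, at a median log2 FC of 0.53, where 0.945% of all genes were higher. Leukocyte means of control tumors, 8.62 to 8.98, overlapped neither combination (9.50 to 10.28) nor CD40 Ab tumors (9.20 to 9.68). Leukocyte level and these treatments thus cannot be told apart in the fits. The B cell mean was 6.20 in MEKi replicate 1 and at most 5.01 in the other tumors.

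**Figure D4:**
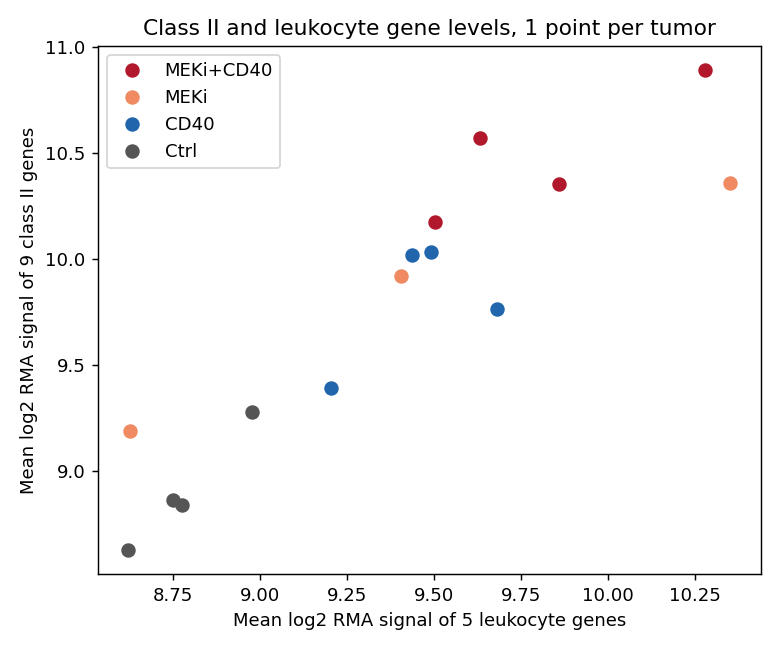
Mean log2 RMA signal of the 9 class II genes (y axis) against that of 5 leukocyte genes (x axis), 1 point per tumor, colored by group. Control tumors lie lowest on both axes apart from MEKi replicate 2, which has a leukocyte mean of 8.63 at a class II mean of 9.19, and MEKi replicate 1 has the highest leukocyte mean, 10.35.

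Macrophage genes rose in 9 of 11 in combination tumors, with a median log2 FC of 0.91. Tyrobp, an adaptor of myeloid receptors, rose by 1.21 ± 0.15 (adjusted p = 0.00103), Mpeg1, a macrophage perforin, by 1.12 ± 0.14 (adjusted p = 0.00117) and Aif1, a calcium-binding macrophage protein, by 1.07 ± 0.22 (adjusted p = 0.0116). Csf1r, the receptor for macrophage growth factor, rose by 0.77 ± 0.18 (adjusted p = 0.0230). With CD40 Ab 7 of 11 rose (1.01% of all genes higher), and with MEKi 0 of 11 (10.7%), where the median was 0.23. The macrophage mean ranged from 9.17 to 9.87 in combination, 8.42 to 9.71 in MEKi, 9.10 to 9.35 in CD40 Ab and 8.57 to 8.81 in control tumors.

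T cell genes rose in 5 of 6 in combination tumors, led by the CD3 chains Cd3g (2.38 ± 0.32, adjusted p = 0.00160) and Cd3d (1.84 ± 0.26, adjusted p = 0.00193) and by Cd8a (1.50 ± 0.22, adjusted p = 0.00244), the CD8 alpha chain. Of 9 dendritic cell genes 1 rose, the integrin Itgax (0.91 ± 0.16, adjusted p = 0.00502), and of 9 B cell genes 1, the kinase Blk (1.21 ± 0.14, adjusted p = 0.000622). With MEKi 0 of 6 T cell genes passed (10.7% of all genes higher), at a median log2 FC of 0.69. With CD40 Ab 2 of 6 rose (1.01%), at a median of 0.62. Of the dendritic and B cell genes, 0 rose with either single agent, and 1 dendritic cell gene fell with MEKi (10.4% of all genes lower). Mouse T cells usually make little class II themselves, whereas dendritic cells, B cells and macrophages make more.

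Over the 15 arrays the 28 pairs of class II genes without H2-Oa had correlations of 0.90 to 0.99, and the 8 pairs with H2-Oa 0.50 to 0.71. Of all other genes, those most like the mean of the standardized class II genes were Nkg7, a granule gene of cytotoxic lymphocytes (r = 0.981), Trbv1, a T cell receptor segment (r = 0.975), Cd3g (r = 0.975), Cd8b1, the CD8 beta chain (r = 0.974), Tyrobp (r = 0.974), Ms4a4b, a T cell membrane gene (r = 0.971), Cd3d (r = 0.967) and Ikzf3, a lymphocyte transcription factor (r = 0.966). After subtraction of group means r was 0.914 to 0.949 for these 8. The values describe 15 tumors that share groups, they were picked as the highest of all genes, and no p was computed.

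Several B cell genes were high in MEKi replicate 1, 1 of the tumors with high H2-Oa. H2-Ob, the beta chain of H2-O, was at 7.09 in MEKi replicate 1, at 4.02 in combination replicate 2 and between 2.78 and 3.33 in the other 13 tumors. The B cell receptor component Cd79b and the B cell antigen Ms4a1 were likewise highest in MEKi replicate 1, at 8.44 and 7.95. Of the 9 B cell genes, 7 were highest of all tumors in MEKi replicate 1, the exceptions being the B cell factor Pax5, at 4.65 there and 4.53 to 5.17 elsewhere, and Blk, which was higher in all 4 combination tumors. In combination replicate 2, which had the highest H2-Oa, 5 of the 9 were among the 2 highest values, with Ms4a1 at 5.12. In combination replicates 1 and 3, H2-Oa was also above all controls, at 6.03 and 5.98, while H2-Ob was at 2.87 and 3.05 and Ms4a1 at 3.55 and 4.14. H2-Ob did not differ past the threshold in combination (log2 FC -0.03 ± 0.23, adjusted p = 0.945), MEKi (1.09 ± 0.91, adjusted p = 0.466) or CD40 Ab tumors (-0.31 ± 0.07, adjusted p = 0.101) against control. Without MEKi replicate 1 the log2 FC of H2-Oa with MEKi was -0.39. The part of B cells in these values was not tested.

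**Figure D5:**
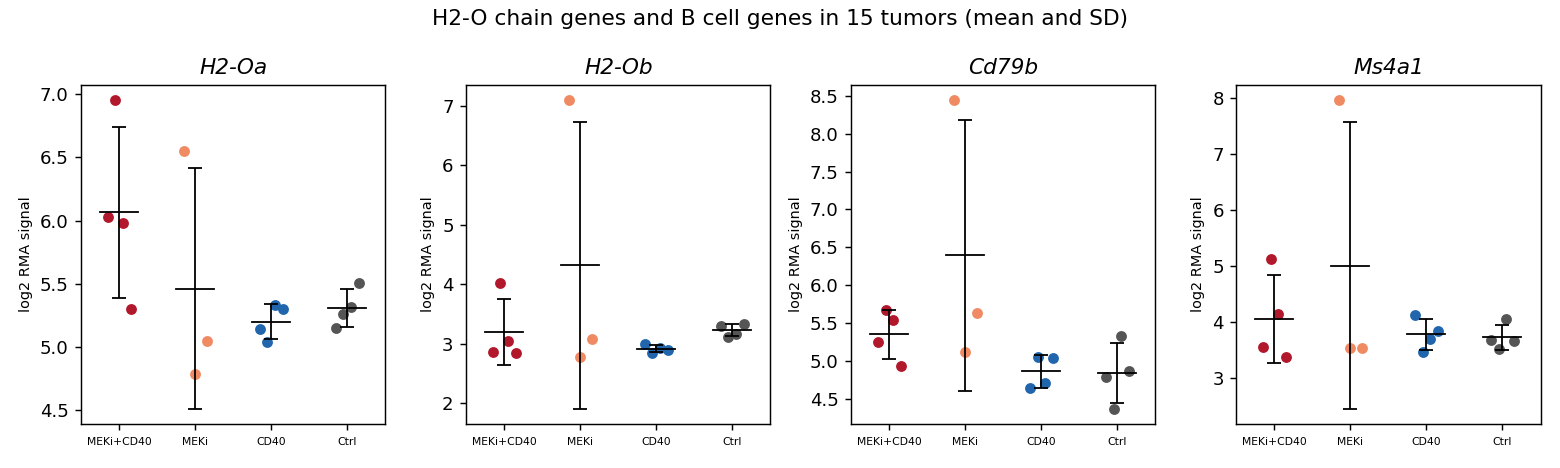
Log2 RMA signal (y axis) of the H2-O chain genes H2-Oa and H2-Ob and the B cell genes Cd79b and Ms4a1 in each tumor by group (x axis), with points for tumors and bars for mean and SD. MEKi replicate 1 is the highest point for H2-Ob (7.09), Cd79b (8.44) and Ms4a1 (7.95), and combination replicate 2 for H2-Oa (6.95).

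Skeletal muscle and skin genes also differed between groups. Muscle genes rose in 9 of 10 in combination and 3 of 10 in MEKi against control, with Myh1, a muscle myosin, at a log2 FC of 3.86 ± 0.92 in the combination (adjusted p = 0.0220). Their mean was 8.83 ± 0.68 (SD, n = 4) in combination, 8.96 ± 1.65 (n = 3) in MEKi, 5.38 ± 0.97 (n = 4) in CD40 Ab and 6.18 ± 1.27 (n = 4) in control tumors. Skin genes rose in 6 of 9 in MEKi tumors and in 0 of 9 in combination and CD40 Ab tumors. With muscle and skin means as covariates, 4 of the 9 class II genes passed in combination against control, at a median log2 FC of 1.00, where 1.63% of all genes were higher past the threshold. In MEKi against control 0 of 9 passed and the median was 0.34, with 0.846% of all genes higher. In CD40 Ab against control 0 of 9 passed as well, but the median was 1.10, 8 of the genes had adjusted p of 0.0520 to 0.0871, and 0.0275% of all genes were higher. In combination against CD40 Ab 5 of 9 estimates turned below 0. The muscle mean was 7.95 or more in every tumor given MEKi, alone or combined, and 7.12 or less in every other tumor. Muscle level and inhibitor thus cannot be told apart in these fits. The skin mean was 7.24 to 8.09 in MEKi tumors and 6.51 or less in every other tumor. Skin level and MEKi alone thus cannot be told apart either. What part neighboring tissue had in these changes was not tested. Of 6 tumor epithelial genes, 1 (Epcam) rose with the combination and with MEKi, and Krt19 was 0.13 ± 0.07 higher in the combination on the log2 scale (adjusted p = 0.269).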

How the data were processed

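Total RNA (200 ng, integrity number above 8) from pieces of 15 tumors was amplified from the 3' end and measured on Affymetrix mouse 430 2.0 arrays, 1 per tumor. The authors deposited a log2 signal for each probe set and array, computed in Chipster by RMA, that is, background correction, quantile normalization and summarization. Versions and annotation build were not given in the sources used here. Quantile normalization makes levels relative within an array. Array medians were 5.16 to 5.24, and the number of arrays limited the precision. The replicates are separate tumors.

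Of 45101 probe sets, 64 Affymetrix controls were left out. Each pair of groups was fitted on its own arrays with limma 3.58.1 in R 4.3.3 (empirical Bayes, two-sided), with Benjamini-Hochberg adjustment over 45037 probe sets, a threshold of 0.05 and no minimum fold, and the interaction on all 15 arrays. FC are given ± SE and levels ± SD. The fits were tested on simulated data. Gene symbols came from the platform annotation. All class II genes were named in every comparison, and up to 3 passing genes without overlap per other list, those with the largest FC, besides fixed genes of interest. Cd79b, Pax5, H2-Ea and the keratins Krt8 and Krt18 were named after their values were seen, as were the X and Y box factors. The class II genes and the 13 lists were chosen with earlier results of these data known. Of 108 listed genes, 100 had a probe set with their symbol alone; the others were not analysed here. Alternatives covered the probe set, filter, normalization, variance prior, array weights, samples, threshold and covariates.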

Additional observations from a re-analysis of the deposited data

How the results depend on the processing

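Of 1296 log2 FC of single class II genes under alternatives, 1101 kept their direction and side of the threshold, 113 kept the direction but no longer passed, 35 newly passed and 47 changed sign. The combination against control gave 8 genes of 9 in the analysis as reported. Without probe sets that can match several transcripts it gave 5 of 6 measurable genes, as H2-Aa, H2-Ab1 and Cd74 had no others. The count was 4 with muscle and skin covariates, 5 with the leukocyte covariate and 0 with leukocyte and B cell covariates. MEKi against control (4 genes) gave 6 in 1 fit of all 15 arrays, 5 without dim probe sets and 3 with array weights. It gave 0 with the tumor number series as a covariate, 0 with muscle and skin covariates and 1 at an adjusted p of 0.01. The series covariate gave the same estimates as the tumors from 10000 on, with their 1 control tumor. Of all genes, 13.8% were higher with MEKi in the fit of 15 arrays and 11.4% with array weights. The share was 1.43% with the series covariate, 0.846% with muscle and skin and 5.4% at 0.01. CD40 Ab against control (4 genes) gave 0 in 1 fit of all 15 arrays, in tumors under 10000, with muscle and skin covariates, with either leukocyte fit and at 0.01. Of all genes, 15 were higher in the fit of 15 arrays, 7 under 10000, 5 with muscle and skin, and 0 in the others. The CD40 Ab count was 2 with a trend and robust prior, 5 without dim probe sets or with array weights and 8 with the series covariate. Of all genes, 1.09% were higher with that prior, 1.17% with array weights and 0.956% with the series covariate. Combination against MEKi (0 genes) gave 1 in 1 fit of all arrays (4.88% of all genes higher) and 2 with the leukocyte covariate (6.17%). Combination against CD40 Ab (2 genes) gave 1 in 1 fit of all arrays (3.86% of all genes higher) and 0 with the replicate block (1.82%). It gave 4 with the series covariate (3.11%) and 0 with muscle and skin covariates (0.297%). It gave 1 with the leukocyte fit (4.22%) and with the leukocyte and B cell fit (4.29%), and 0 at 0.01 (0.803%). The interaction (0 genes) gave 1, H2-Oa, with either leukocyte fit, where 2.46% and 2.53% of all genes were higher. Leaving out each array gave 8 to 9, 1 to 8, 0 to 7, 0 to 1, 0 to 3 and 0 genes in the 6 comparisons, in the order above. The leukocyte covariates were chosen after the data were seen. Fits with leukocyte or with muscle and skin covariates have the limits given with them above. The causes of these moves were not tested.

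Signs changed as follows. For H2-Oa in combination against control, the log2 FC was -0.30 with muscle and skin, -0.41 with leukocyte and -0.11 with leukocyte and B cell covariates. In MEKi against control it was -0.16 with array weights, -0.047 with the series covariate and in tumors from 10000 on, -0.34 with muscle and skin, -0.61 with leukocyte and -0.63 with leukocyte and B cell covariates, and in CD40 Ab against control 0.13 with muscle and skin. In combination against MEKi, with leukocyte and B cell covariates, H2-Ab1 was at -0.0025 and Cd74 at -0.16. In combination against CD40 Ab with muscle and skin covariates, H2-Aa was at -0.19, H2-Ab1 at -0.17, H2-Eb1 at -0.21, H2-Oa at -0.44 and Ctss at -0.066. The interaction with the series covariate was 0.21 for H2-Aa, 0.33 for H2-Ab1, 0.42 for H2-Eb1, 0.16 for H2-DMa, 0.72 for H2-DMb2, 0.16 for Cd74 and 0.025 for Ciita. With muscle and skin it was -0.095 for H2-Oa and -0.41 for Ctss, with leukocyte 0.00026 for H2-Eb1 and 0.22 for H2-DMb2, with leukocyte and B cell 0.20 for H2-DMb2, with array weights 0.081 for H2-DMb2, and for Ctss -0.012 with median centring and with the replicate block. With each array left out in turn, the log2 FC of H2-Oa in MEKi against control ranged from -0.39 (without MEKi replicate 1) to 0.49, and the interaction from -0.63 to 0.035 for H2-Eb1, from -0.64 to 0.28 for H2-DMb2 and from -0.24 to 0.30 for Ctss. None of these reversed values passed the threshold.

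The replicate numbers did not pair the tumors: the 21 same-numbered pairs had correlations of -0.28 to 0.21, and 6 of 15 arrays were nearest to one with their own number. With the number as a block, 8, 4, 3, 0, 0 and 0 genes passed in the same order. Of all genes, 9.92%, 6.21%, 0.682%, 0.104%, 1.82% and 1.5% were higher in these fits. The 95% intervals give the precision that 3 or 4 tumors per group allowed for each gene. With median centring, 9.2% of all genes were higher and 12.5% lower in combination against control, and 3.34% and 3.57% against CD40 Ab, with 8 and 2 class II genes past the threshold as before.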
